A study of Mus musculus with 15 samples.

Results

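Glycogen synthesis and breakdown were followed through 6 genes of a mouse melanocyte line, out of 22180 genes measured on each array. They were chosen by name, with earlier results of these data known. The 6 are Gys1, Gbe1, Ppp1r3c, Ugp2, Pygl and Pygb, taken from probe sets whose platform annotation gives exactly 1 gene symbol. Each of the 6 had 1 such probe set, and 0 probe sets shared with another gene, so no choice between probe sets was needed. RNA was measured on 15 one-colour Affymetrix arrays, 3 biological replicates in each of 5 groups. All cultures were melan-Ink4a-Arf-1, an immortal melanocyte line from Cdkn2a tm1RDp/tm1RDp mice, so every group, controls included, came from cells with this tumour suppressor allele and from a single line. All were grown at 37 °C with 10% fetal bovine serum, 200 nM of the phorbol ester 12-O-tetradecanoylphorbol 13-acetate and 200 pM cholera toxin, an agent that raises cyclic AMP. The normoxia group had about 21% oxygen and 10% CO2. The hypoxia control, the negative control, Si1 and Si6 groups were held for 24 h in 1% oxygen with 5% CO2. Because CO2 was lowered along with oxygen, the effects of either gas cannot be told apart. Si1 and Si6 received small interfering RNAs (siRNAs) against Hif1a, which encodes the oxygen-regulated subunit of the transcription factor HIF-1, 24 h before hypoxia. The labels leave unstated what the negative control and the hypoxia control each received. Levels are the authors' log2 intensities, and a level of 1 gene cannot be set against that of another on this scale. In these bulk cultures, fewer cells of a type and less RNA per cell cannot be told apart.

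Glycogen is a branched polymer of glucose that cells build when sugar is at hand and degrade when fuel is short. UDP-glucose pyrophosphorylase (Ugp2) makes the activated sugar, glycogen synthase (Gys1 in muscle and most other tissues) adds it to growing chains, and the branching enzyme (Gbe1) transfers chain ends to make branches. Glycogen phosphorylases, named for liver (Pygl), brain (Pygb) and muscle (Pygm), release glucose 1-phosphate. Ppp1r3c, also called protein targeting to glycogen, brings protein phosphatase 1 to the particle, where the phosphatase activates the synthase and inactivates the phosphorylase. Low oxygen is known to lead to glycogen storage in many cultured cells, and the synthase, the branching enzyme and the targeting subunit are known HIF-1 responsive genes in several cell types. The comparisons below address how these genes respond in melanocytes at low oxygen and whether the responses need Hif1a.

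Hypoxic culture raised 5 of the 6 genes, and each Hif1a siRNA lowered the same 5. In the hypoxia control against normoxia the rises were 5.35-fold for Gbe1, 3.51-fold for Gys1, 2.13-fold for Pygl, 1.89-fold for Ppp1r3c and 1.48-fold for Ugp2. Pygb, the brain phosphorylase, went the other way and fell to 86% of its normoxic level. With Si1 the 5 genes fell to between 16% (Gbe1) and 74.3% (Ugp2) of the negative control, and with Si6 to between 23.4% and 65.7%, with the same genes at the ends. Pygb did not pass the test with either siRNA. Tests were limma's, with adjusted p below 0.05 over all genes. Among all 22180 genes, 9.87% were called higher and 11.2% lower in the hypoxia control against normoxia. Against the negative control 20.2% were called higher and 14.8% lower with Si1, and 17.0% higher and 11.9% lower with Si6. Of all genes, 3.43% were called higher in the hypoxia control and lower with both siRNAs, as these 5 members were. The members were chosen with earlier results of these data known, so that share gives a scale and no test. The hypoxia control against normoxia and each siRNA against the negative control share no array. They do share the estimate of each gene's spread, which came from all 15 arrays. The siRNA comparisons also share the negative control arrays.

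The siRNA target itself was lowered in every siRNA array. Hif1a was at 10.36, 10.30 and 10.35 log2 units in normoxia, 10.63, 10.54 and 10.59 in the hypoxia control, 10.68, 10.66 and 10.56 in the negative control, 8.61, 8.75 and 8.59 in Si1, and 8.90, 8.91 and 8.98 in Si6. Si1 and Si6 arrays lay below all others and did not overlap each other, with Si1 minus Si6 at -0.28 ± 0.06 on the log2 scale (limma's standard error, adjusted p = 0.001). That difference, and the rise of Hif1a in the hypoxia control (0.25, adjusted p = 0.004), were not called with the mean of its probe sets (adjusted p = 0.173 and 0.134). The array values above are of the Hif1a probe set with the highest mean. Group means of the other probe set of Hif1a alone were 5.32 to 5.47. Those of a probe set shared with S100a11-ps were 6.81 to 6.92. The 8 melanocyte markers fixed for this purpose (Mitf, Sox10, Dct, Tyr, Tyrp1, Pmel, Mlana and Kit) had means of 8.46 to 13.06 over all arrays. Of 13 measured markers of fibroblasts, keratinocytes, endothelium and leukocytes, 12 had means between 4.35 and 6.73. The exception was Cd68, a lysosomal protein, at 8.56.

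**Figure D1:**
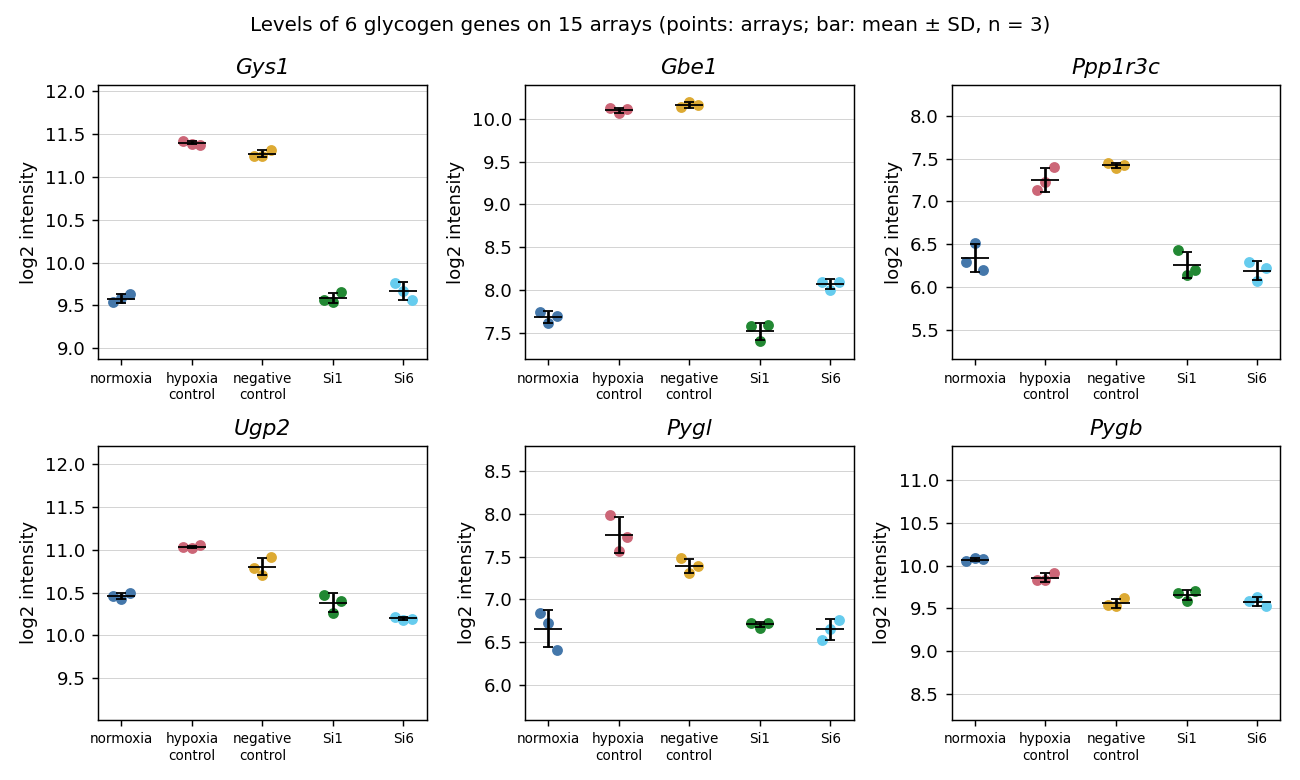
Log2 intensity (vertical axes, each spanning the same number of log2 units) of Gys1, Gbe1, Ppp1r3c, Ugp2, Pygl and Pygb in the 5 groups, with 1 point per array, a bar at the mean and error bars of 1 SD (n = 3). In the Gys1, Gbe1, Ppp1r3c, Ugp2 and Pygl panels the hypoxia control and negative control arrays lie above the normoxia, Si1 and Si6 arrays. In the Pygb panel the normoxia arrays are highest. The share of all genes whose arrays separate in this way was not counted.

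The stretch around the start site is shown for 4 members that moved together and for Pygb, which did not, because HIF-1 is known to bind DNA at a short core, most often written ACGTG or GCGTG. RefSeq (build GRCm38.p6) gave windows of 300 bases, 250 before to 50 after a gene's start, for 6 of 6 members, and 2 such windows for Ugp2. The labels name no build for the probe sets. The windows printed are Gys1 at chr7:45434589-45434888 on the plus strand, Gbe1 at chr16:70313699-70313998 on the plus strand, Ppp1r3c at chr19:36736555-36736854 on the minus strand, Pygl at chr12:70227634-70227933 on the minus strand and Pygb at chr2:150786546-150786845 on the plus strand. Each reads 5′ to 3′ along its gene, and capitals mark ACGTG on either strand (CACGT where it lies on the other strand).
Gys1: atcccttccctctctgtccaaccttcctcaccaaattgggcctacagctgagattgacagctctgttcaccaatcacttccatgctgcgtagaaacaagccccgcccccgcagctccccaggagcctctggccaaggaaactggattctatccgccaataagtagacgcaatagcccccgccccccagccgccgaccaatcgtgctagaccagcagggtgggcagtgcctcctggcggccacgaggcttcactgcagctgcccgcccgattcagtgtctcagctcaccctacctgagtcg
Gbe1: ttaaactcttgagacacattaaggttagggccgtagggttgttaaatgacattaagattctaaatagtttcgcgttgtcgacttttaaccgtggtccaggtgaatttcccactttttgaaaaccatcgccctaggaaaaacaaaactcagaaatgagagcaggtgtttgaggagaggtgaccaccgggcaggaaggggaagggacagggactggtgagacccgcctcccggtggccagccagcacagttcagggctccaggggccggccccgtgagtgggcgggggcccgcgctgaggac
Ppp1r3c: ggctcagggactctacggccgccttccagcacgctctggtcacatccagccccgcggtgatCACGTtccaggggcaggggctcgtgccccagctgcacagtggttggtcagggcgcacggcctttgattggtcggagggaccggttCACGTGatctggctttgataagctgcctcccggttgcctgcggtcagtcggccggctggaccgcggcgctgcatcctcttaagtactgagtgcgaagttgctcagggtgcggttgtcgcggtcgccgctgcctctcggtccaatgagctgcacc
Pygl: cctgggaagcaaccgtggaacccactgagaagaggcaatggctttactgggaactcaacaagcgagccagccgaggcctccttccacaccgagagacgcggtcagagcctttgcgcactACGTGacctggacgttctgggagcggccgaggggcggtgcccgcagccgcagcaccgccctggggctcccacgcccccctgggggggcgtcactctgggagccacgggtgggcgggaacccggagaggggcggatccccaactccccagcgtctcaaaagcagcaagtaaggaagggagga
Pygb: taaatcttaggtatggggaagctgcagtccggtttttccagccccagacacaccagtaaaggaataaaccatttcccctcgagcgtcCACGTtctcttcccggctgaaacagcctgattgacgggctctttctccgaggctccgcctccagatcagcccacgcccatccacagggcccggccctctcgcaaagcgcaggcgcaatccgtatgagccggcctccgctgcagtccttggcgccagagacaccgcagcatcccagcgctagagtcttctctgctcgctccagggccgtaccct

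ACGTG was found in a window of 4 of the 6 members, beside 21.8% of the 27025 genes in the RefSeq table. For GCGTG the count was also 4 of 6, beside 35.2% of genes. A link between these letters and the responses was not tested. Gys1 and Gbe1, the members with the largest rises, had 0 copies of ACGTG and 0 of GCGTG in these windows. Ppp1r3c had 3 copies of ACGTG. They began 189, 104 and 103 bases before the start, the last 2 overlapping in the palindrome CACGTG, which is also the letters of an E-box, a site of other factors. Pygl had 1 copy, 131 bases before the start, and Pygb, which fell, also had 1, at 163 bases. A Ugp2 window had 1 ACGTG and 5 GCGTG, and its other window had 0 of either. GCGTG was also found once each in the Ppp1r3c, Pygl and Pygb windows. Over all 32851 windows of that length in the RefSeq table, 19.6% held ACGTG on either strand, 32.4% held GCGTG and 7.15% held CACGTG. A match in these letters is a description, and absence covers only these 300 bases.

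Glycogen synthase and the branching enzyme, the pair that builds the polymer, had the largest responses of the 6. Gys1 was at 9.54, 9.59 and 9.63 in normoxia. Hypoxia control arrays read 11.42, 11.39 and 11.37, and negative control arrays 11.24, 11.24 and 11.32. Si1 arrays read 9.57, 9.54 and 9.66, and Si6 arrays 9.76, 9.67 and 9.57. All 6 arrays of the hypoxic controls lay above all 9 others, and the siRNA arrays overlapped those of normoxia. The hypoxia control exceeded normoxia by 1.81 ± 0.06 on the log2 scale (adjusted p = 5.6e-12), the change of rank 31 among all rises. Against the negative control Gys1 fell by 1.68 with Si1 (adjusted p = 1.0e-11) and by 1.60 with Si6 (adjusted p = 4.0e-11). What remained above normoxia was 0.01 with Si1 (95% interval -0.12 to 0.13, adjusted p = 0.952) and 0.08 with Si6 (-0.04 to 0.21, adjusted p = 0.311). Si1 arrays averaged -0.08 relative to Si6 arrays (-0.20 to 0.04), which missed the threshold (adjusted p = 0.381). In order of level the hypoxia control and the negative control came highest, without overlap of their arrays (negative control minus hypoxia control -0.13, -0.25 to -0.01, adjusted p = 0.163), and Si6, Si1 and normoxia followed, none of them differing from a neighbour by the test.

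Gbe1 was at 7.74, 7.61 and 7.70 in normoxia. Hypoxia control arrays read 10.12, 10.07 and 10.11, and negative control arrays 10.14, 10.19 and 10.16. Si1 arrays read 7.58, 7.40 and 7.59, and Si6 arrays 8.10, 8.00 and 8.10. The hypoxic controls were high, Si6 lay above normoxia without overlap, and Si1 lay below normoxia without overlap. The rise in the hypoxia control was 2.42 ± 0.06 (adjusted p = 3.8e-13), the change of rank 14 among all rises. The negative control stood 2.48 ± 0.06 above normoxia (adjusted p = 2.6e-13), and the hypoxic controls differed by 0.07 (-0.06 to 0.19, adjusted p = 0.560). Si1 lowered Gbe1 by more than Si6 did. Against the negative control the changes were -2.64 with Si1 and -2.10 with Si6 on the log2 scale (each ± 0.06), and Si1 minus Si6 was -0.55 ± 0.06 (adjusted p = 3.1e-06). Among the 6 members this was the largest difference between the siRNAs. Si1 was also the siRNA with less Hif1a mRNA, a call lost with the mean of the Hif1a probe sets (adjusted p = 0.173). A link between the Hif1a and Gbe1 differences was not tested. With Si6 the Gbe1 level was still 1.31 times that of normoxia (log2 difference 0.39, 0.26 to 0.51, adjusted p = 7.9e-05). With Si1 it was 0.897 times that of normoxia (log2 difference -0.16, adjusted p = 0.044), a call lost under 4 alternative settings and when any of 11 single arrays, among them Si1 replicate b, normoxia replicates a and c, and arrays of the groups not compared, was left out (adjusted p up to 0.214).

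Ppp1r3c, the targeting subunit that favours synthesis, was at 6.29, 6.52 and 6.20 in normoxia. Hypoxia control arrays read 7.13, 7.23 and 7.40, and negative control arrays 7.45, 7.39 and 7.42. Si1 arrays read 6.43, 6.14 and 6.20, and Si6 arrays 6.29, 6.07 and 6.22. The hypoxic controls lay above all other arrays, and the 3 low groups overlapped. Hypoxic culture raised it by 0.92 ± 0.09 in the hypoxia control (adjusted p = 4.0e-06) and by 1.08 ± 0.09 in the negative control (adjusted p = 2.8e-07). It fell by 1.16 with Si1 (adjusted p = 9.3e-08) and by 1.23 with Si6 (adjusted p = 1.1e-07). Against normoxia the siRNA groups were at -0.08 (-0.28 to 0.12) and -0.14 (-0.35 to 0.06), and neither passed the test (adjusted p = 0.582 and 0.299). The siRNAs differed by 0.07 (-0.14 to 0.27, adjusted p = 0.706). The file has no detection calls, so how much of the signal of any of the 6 probe sets is background was not measured. The mean of Ppp1r3c over all arrays was above that of 46.2% of genes, and that of Pygl above 52.3%. For Gbe1, Pygb, Gys1 and Ugp2 the shares were 75.3%, 87.6%, 92.7% and 94.6%. Whether background set the levels of Ppp1r3c and Pygl in normoxia, Si1 and Si6, or the size of their changes, was not tested.

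Ugp2, which supplies UDP-glucose to glycogen and to other sugar polymers, responded least among the 5 genes that rose. It was at 10.46, 10.43 and 10.50 in normoxia. Hypoxia control arrays read 11.03, 11.02 and 11.05, and negative control arrays 10.79, 10.71 and 10.91. Si1 arrays read 10.47, 10.26 and 10.40, and Si6 arrays 10.22, 10.18 and 10.19. The hypoxia control was highest, the negative control came next without overlap, Si1 overlapped normoxia, and Si6 lay below all other arrays. The rise was 0.57 ± 0.06 in the hypoxia control (adjusted p = 6.7e-06) and 0.34 ± 0.06 in the negative control (adjusted p = 4.7e-04). The gap between these hypoxic groups, -0.23 ± 0.06 for the negative control, passed the test (adjusted p = 0.019). That call was lost when any of 5 arrays was left out, namely replicates a and b of the negative control or any replicate of the hypoxia control (adjusted p up to 0.100). It fell by 0.43 with Si1 (adjusted p = 4.0e-05) and by 0.61 with Si6 (adjusted p = 2.0e-06). Si6 took it below normoxia, by -0.27 ± 0.06 (adjusted p = 0.003), and Si1 was at -0.09 (-0.22 to 0.04, adjusted p = 0.300). Si1 exceeded Si6 by 0.18 ± 0.06 (adjusted p = 0.042), a difference opposite in sign to that of Gbe1. It did not pass with median centring or with only the Si1 and Si6 arrays in the fit, nor when any of 11 single arrays was left out (adjusted p up to 0.188).

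The phosphorylases, which degrade glycogen, moved apart. Pygl was at 6.84, 6.73 and 6.41 in normoxia. Hypoxia control arrays read 7.98, 7.56 and 7.73, and negative control arrays 7.48, 7.31 and 7.39. Si1 arrays read 6.72, 6.67 and 6.73, and Si6 arrays 6.53, 6.65 and 6.76. The hypoxia control was highest, the negative control lay just below it without overlap, and the other 3 groups overlapped. Hypoxic culture raised Pygl by 1.09 ± 0.11 in the hypoxia control (adjusted p = 3.0e-06) and by 0.73 ± 0.11 in the negative control (adjusted p = 8.0e-05). The negative control was lower than the hypoxia control by -0.36 ± 0.11 (adjusted p = 0.037), a call lost with only those groups in the fit and when negative control replicate b or c, or hypoxia control replicate a or c, was left out (adjusted p up to 0.178). Pygl fell by 0.69 with Si1 (adjusted p = 1.1e-04) and by 0.75 with Si6 (adjusted p = 7.3e-05). Against normoxia the siRNA groups were at 0.04 (-0.19 to 0.28, adjusted p = 0.804) and -0.01 (-0.25 to 0.22, adjusted p = 0.945). Pygl had the widest spread within normoxia of the 6 genes, with an SD of 0.22. Its mean over all arrays was above that of 52.3% of genes, and the part of background in it was not measured.

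Pygb was at 10.05, 10.09 and 10.08 in normoxia. Hypoxia control arrays read 9.83, 9.83 and 9.91, and negative control arrays 9.54, 9.53 and 9.62. Si1 arrays read 9.68, 9.59 and 9.70, and Si6 arrays 9.59, 9.63 and 9.53. Normoxia was highest, the hypoxia control came next without overlap, and the negative control, Si1 and Si6 overlapped below it. The hypoxia control was lower than normoxia by -0.22 ± 0.05 (adjusted p = 0.006) and the negative control by -0.51 ± 0.05 (adjusted p = 1.2e-06). The step between the hypoxic controls, -0.29 ± 0.05, passed the test (adjusted p = 7.6e-04). Its size was not tested against that of the step from normoxia to the hypoxia control, which shares the hypoxia control arrays. Against the negative control Pygb did not pass the test, with 0.10 for Si1 (-0.01 to 0.21, adjusted p = 0.167) and 0.02 for Si6 (-0.09 to 0.13, adjusted p = 0.812). Si1 and Si6 stayed below normoxia by -0.41 and -0.49 (each ± 0.05, adjusted p = 6.2e-06 and 2.0e-06).

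The negative control and the hypoxia control, both at 1% oxygen, thus differed in Ugp2, Pygl and Pygb, all lower in the negative control, and in none of Gys1, Gbe1 and Ppp1r3c by the test. Of all genes, 7.80% were called higher and 7.51% lower in that comparison. The mean of the 8 melanocyte markers also moved between these groups, from 11.65 to 11.69 on the hypoxia control arrays to 11.08 to 11.17 on the negative control arrays. It was 11.83 to 11.89 in normoxia, 10.82 to 10.86 in Si1 and 11.39 to 11.48 in Si6, and its part in the results for the glycogen genes was not tested. The measured markers of the 4 other cell types, averaged within a list, spanned 5.36 to 6.37, apart from the leukocyte list on Si1 arrays, which was at 6.64 to 6.69. In that list Cd68 had a mean of 9.65 in Si1 and 7.93 in normoxia. Group means of Ptprc, the pan-leukocyte marker, were 4.43 to 4.58 and those of Lum, a fibroblast marker, 4.21 to 4.47.

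Between the siRNAs, 1 member was called higher with Si1 (Ugp2) and 1 lower (Gbe1), where 14.5% of all genes were called higher and 13.4% lower.

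**Figure D2:**
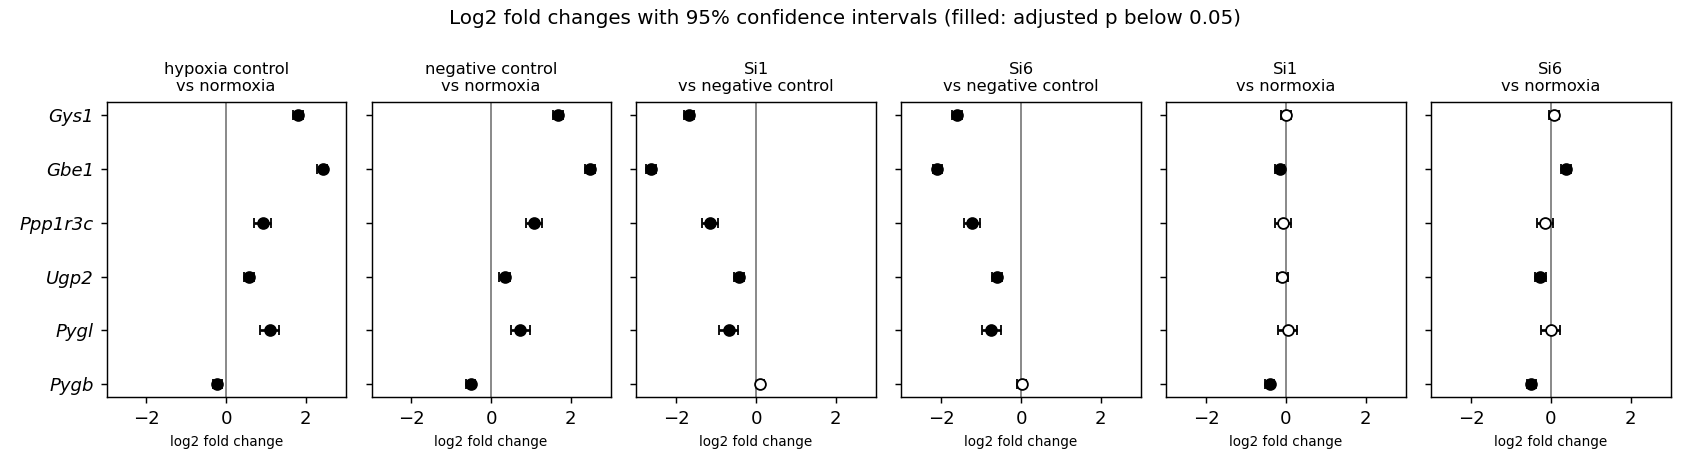
Log2 fold changes (horizontal axes) of the 6 genes in 6 comparisons, with 95% confidence intervals from limma and filled symbols where the adjusted p was below 0.05. The 5 upper genes lie right of 0 in both comparisons of hypoxic controls with normoxia and left of 0 in both comparisons of an siRNA with the negative control. Against normoxia, only Gbe1, Ugp2 and Pygb have filled symbols in an siRNA group.

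With Hif1a lowered, the 5 genes stood at 0.831 to 1.31 times their normoxic levels after 24 h at 1% oxygen. Against normoxia, 0 members were called higher and 2 lower (Gbe1 and Pygb) with Si1, where 21.7% of all genes were called higher and 17.4% lower. With Si6, 1 member was called higher (Gbe1) and 2 lower (Ugp2 and Pygb), where 17.0% of all genes were called higher and 13.1% lower. The hypoxic rise of the negative control over normoxia, by comparison, was 1.68 for Gys1, 2.48 for Gbe1, 1.08 for Ppp1r3c, 0.34 for Ugp2 and 0.73 for Pygl. In that comparison 14.6% of all genes were called higher and 15.7% lower. Comparisons with normoxia share the normoxia arrays, and those with the negative control share its arrays, so their values stand side by side without a test of likeness.

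Beyond the 6 members, 42 other genes of glycogen and UDP-glucose metabolism were listed by role, and 36 of them were measured. In the hypoxia control against normoxia 4 of the 36 rose and 7 fell, with a median of 0.00 on the log2 scale, the same as over all genes. With Si1, 9 rose and 9 fell against the negative control, and with Si6, 9 rose and 8 fell, with medians of -0.01 and -0.02 beside -0.01 over all genes. In the negative control against normoxia 9 rose and 11 fell, with a median of 0.01. Of all genes, 9.87% were called higher and 11.2% lower in the hypoxia control against normoxia, and 14.6% and 15.7% in the negative control. Against the negative control the shares were 20.2% and 14.8% with Si1, and 17.0% and 11.9% with Si6. The 4 that rose in the hypoxia control (Epm2a, Stbd1, Prkab2 and Ugdh) also rose in the negative control and were called lower with both siRNAs. Of all genes, 3.43% were called higher in the hypoxia control and lower with both siRNAs. The lists, like the members, were chosen with earlier results of these data known. Against normoxia, Stbd1 and Prkab2 were still called higher with Si1 (0.24 and 0.27, adjusted p = 0.002 and 0.003). Ugdh was still called higher with Si6 (0.19, adjusted p = 0.012), and Epm2a was called lower with both. With both siRNAs Ppp1r3b and Phkb were called lower too, and neither was called in the hypoxia control.

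Epm2a, which encodes laforin, the phosphatase that removes phosphate from glycogen, had a response of the size seen for Gys1 and Gbe1. Its mean level was 6.91 in normoxia, rose to 8.89 and 8.33 in the hypoxia control and the negative control, and was 6.02 with Si1 and 6.57 with Si6. It rose by 1.98 ± 0.07 in the hypoxia control (adjusted p = 2.9e-11) and fell with Si1 (-2.31 ± 0.07, adjusted p = 4.5e-12) and with Si6 (-1.76 ± 0.07, adjusted p = 1.3e-10). Unlike Gys1 and Gbe1, it was called lower in the negative control than in the hypoxia control (-0.56, adjusted p = 4.7e-05). Both siRNAs took it below normoxia, by -0.88 with Si1 (adjusted p = 5.8e-08) and -0.34 with Si6 (adjusted p = 0.002). The other genes of glycogen quality and binding moved less. Stbd1, a protein with a starch-binding domain that carries glycogen to lysosomes, was at 0.23 ± 0.05 in the hypoxia control (adjusted p = 0.005), -0.17 ± 0.05 with Si1 (adjusted p = 0.020) and -0.27 ± 0.05 with Si6 (adjusted p = 0.001). Its Si1 call was lost with median centring (adjusted p = 0.109), with only the Si1 and negative control arrays (adjusted p = 0.086) and with trend and robust moderation (adjusted p = 0.051). Nhlrc1, encoding malin, the ubiquitin ligase that partners laforin, was called in none of these 3 comparisons, and was lower in the negative control than in normoxia (-0.21 ± 0.07, adjusted p = 0.028).

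Of the remaining synthesis genes, 5 were measured (Gys2, Gyg, Pgm2, Pgm2l1 and Gsk3b). In the hypoxia control against normoxia 0 of them passed the test, with changes between -0.07 and 0.05. In the negative control against normoxia Gyg was called lower (-0.31 ± 0.06, adjusted p = 5.0e-04) and Pgm2 higher (0.18 ± 0.05, adjusted p = 0.012). Among them were glycogenin (Gyg), the primer of new chains, and Gys2, the liver synthase, whose group means stayed between 5.58 and 5.69. With the siRNAs the phosphoglucomutase family member Pgm2 rose, by 0.57 ± 0.05 with Si1 (adjusted p = 2.7e-07) and by 0.44 ± 0.05 with Si6 (adjusted p = 8.1e-06), as did Pgm2l1, by 0.40 and 0.28 (each ± 0.07, adjusted p = 1.6e-04 and 0.005). Gyg fell with Si1 (-0.42 ± 0.06, adjusted p = 1.6e-05) and was at 0.08 ± 0.06 with Si6 (adjusted p = 0.342), and Si1 minus Si6 passed the test (-0.50 ± 0.06, adjusted p = 4.4e-06). Against normoxia, 9.87% of all genes were called higher and 11.2% lower in the hypoxia control, and 14.6% and 15.7% in the negative control. Of 9 targeting and catalytic subunits of protein phosphatase 1, 0 were called in the hypoxia control and 3 in the negative control against normoxia. Those 3 were Ppp1r3b (0.36 ± 0.09, adjusted p = 0.006), Ppp1cb (0.16 ± 0.06, adjusted p = 0.043) and Ppp1r3f (-0.20 ± 0.07, adjusted p = 0.048), of which Ppp1cb and Ppp1r3f lost the call under several alternatives. Ppp1r3b, the targeting subunit best known from liver, fell by 0.33 with Si1 (adjusted p = 0.008) and by 0.37 with Si6 (adjusted p = 0.004), and was at 0.22 ± 0.09 in the hypoxia control (adjusted p = 0.100). Ppp1cb, a catalytic subunit, was at -0.23 with Si1 (adjusted p = 0.005), but at -0.07 (adjusted p = 0.370) with the mean of its 2 probe sets. With Si6 the smaller changes of Ppp1r3f (0.21, adjusted p = 0.043) and Ppp1ca (0.17, adjusted p = 0.031) were each lost under at least 1 alternative.

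Among 7 measured breakdown genes 1 fell and 0 rose in the hypoxia control, and 3 fell and 1 rose in the negative control, each against normoxia. Over all genes, 11.2% were called lower and 9.87% higher in the hypoxia control, and 15.7% and 14.6% in the negative control. Phka1, a regulatory subunit of phosphorylase kinase, the enzyme that switches phosphorylase on, fell in both, by 0.46 (adjusted p = 7.7e-05) and by 0.49 (adjusted p = 2.1e-05). Called in the negative control, and not in the hypoxia control, were Gaa, the lysosomal glucosidase that degrades glycogen (-0.41, adjusted p = 1.2e-04), the kinase subunits Phkb (-0.15, adjusted p = 0.039, and 0.059 with median centring) and Phka2 (0.20, adjusted p = 0.019). Muscle phosphorylase Pygm was at 0.02 ± 0.09 in the hypoxia control (adjusted p = 0.917). The siRNAs lowered Phkb by 0.82 with Si1 (adjusted p = 5.0e-09) and by 0.20 with Si6 (adjusted p = 0.006), and it was at -0.06 ± 0.05 in the hypoxia control (adjusted p = 0.467). Phka1 fell with Si1 (-0.43 ± 0.06, adjusted p = 5.3e-05) and was at 0.17 ± 0.06 with Si6 (adjusted p = 0.064), a difference between the siRNAs of -0.60 (adjusted p = 3.0e-06). Pygm rose with Si1 (0.41 ± 0.09, adjusted p = 0.001) and was at 0.13 with Si6 (adjusted p = 0.319). Its group means ran only from 6.02 in normoxia to 6.51 with Si1, and how much of this signal is background was not measured. The catalytic subunit Phkg2 fell with Si6 (-0.28 ± 0.05, adjusted p = 8.1e-04) and was at -0.05 with Si1 (adjusted p = 0.570). Gaa rose with Si6 (0.37 ± 0.06, adjusted p = 3.5e-04) and was at 0.01 with Si1 (adjusted p = 0.929).

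Subunits of the AMP-activated kinase, an energy sensor that phosphorylates glycogen synthase, moved in both directions. Of 7 measured, 1 rose and 3 fell in the hypoxia control, and 2 rose and 2 fell in the negative control. Over all genes, 9.87% were called higher and 11.2% lower in the hypoxia control, and 14.6% and 15.7% in the negative control. Prkab2, a beta subunit, rose by 0.79 ± 0.06 (adjusted p = 2.8e-07) and fell by 0.46 with Si1 (adjusted p = 2.4e-05) and by 0.85 with Si6 (adjusted p = 7.7e-08). The other beta subunit, Prkab1, went down in the hypoxia control (-0.28 ± 0.07, adjusted p = 0.006), as did the gamma subunits Prkag2 (-0.51 ± 0.09, adjusted p = 5.2e-04) and Prkag1 (-0.19 ± 0.06, adjusted p = 0.027, and 0.068 with median centring). Prkab1 and Prkag1 were also lower in the negative control (-0.21 and -0.28, adjusted p = 0.027 and 0.002). Prkag2 was not called there (-0.17, adjusted p = 0.185), and the hypoxic controls differed in it by 0.34 (adjusted p = 0.014), a call lost with only those groups in the fit (adjusted p = 0.072). Prkag2 rose with Si1 (0.65 ± 0.09, adjusted p = 2.1e-05) and Si6 (0.26 ± 0.09, adjusted p = 0.035, 0.089 with only the groups compared and 0.056 with array weights). Prkag1 rose with Si1 (0.37 ± 0.06, adjusted p = 1.1e-04), and was at -0.03 with Si6 (adjusted p = 0.780). The catalytic subunit Prkaa1 fell with Si6 (-0.29 ± 0.05, adjusted p = 3.8e-04) and rose with Si1 (0.17 ± 0.05, adjusted p = 0.014), and the siRNAs differed by 0.46 (adjusted p = 4.2e-06). Of 5 measured other users of UDP-glucose, 1 rose and 3 fell in the hypoxia control, as in the negative control. Ugdh, which oxidises UDP-glucose to UDP-glucuronate, rose by 0.73 ± 0.05 (adjusted p = 8.1e-08) and fell by 0.77 with Si1 (adjusted p = 1.2e-08) and by 0.60 with Si6 (adjusted p = 3.5e-07). Ugcg, the glucosylceramide synthase, fell in the hypoxia control (-0.39 ± 0.05, adjusted p = 3.4e-05) and rose with Si1 (0.42 ± 0.05, adjusted p = 5.6e-06) and with Si6 (0.26 ± 0.05, adjusted p = 7.3e-04). These rises are against the negative control, which was itself below the hypoxia control (-0.33, adjusted p = 2.6e-04). Ugcg stayed below normoxia with Si1 (-0.30, adjusted p = 1.4e-04) and with Si6 (-0.46, adjusted p = 3.5e-06). Alg5, which makes the dolichol-linked glucose used in N-glycan assembly, fell in the hypoxia control (-0.26 ± 0.07, adjusted p = 0.009). Uggt1, the folding sensor that glucosylates glycoproteins in the endoplasmic reticulum, rose with both siRNAs (0.26 and 0.32, each ± 0.05, adjusted p = 2.5e-04 and 5.8e-05).

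**Figure D3:**
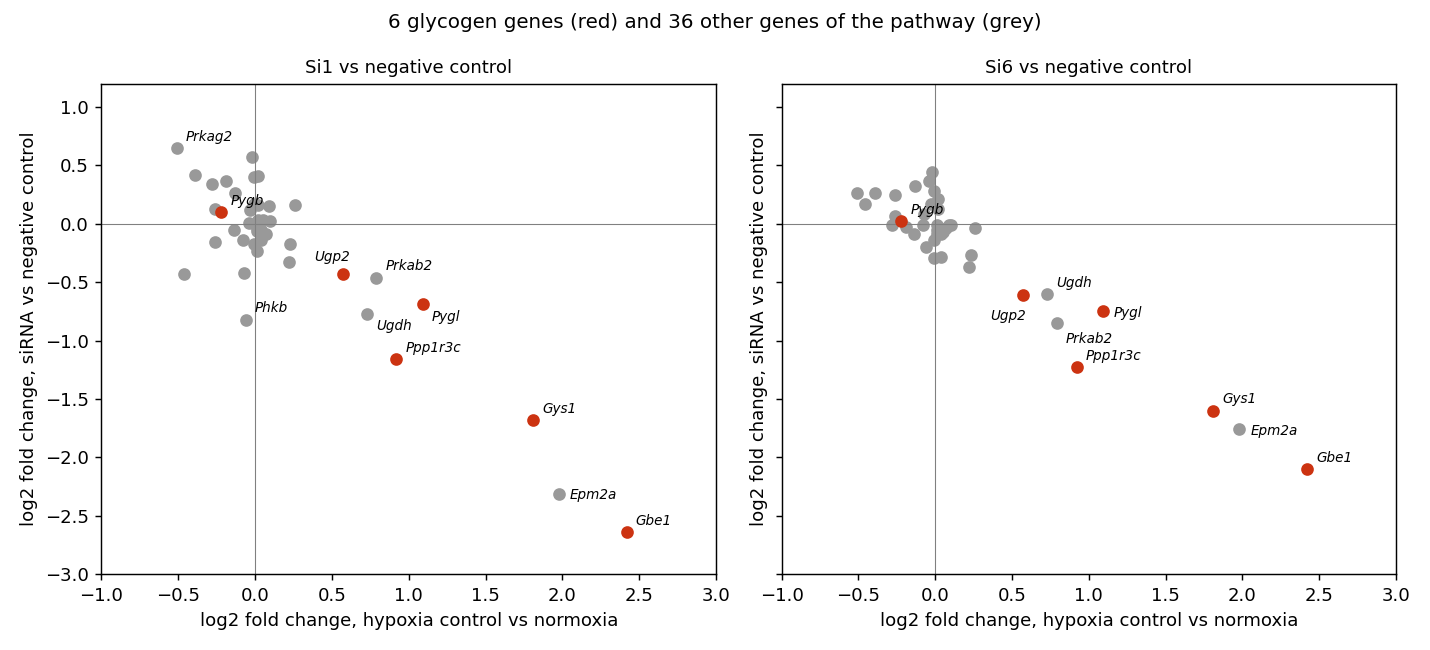
Each point is a gene, with its log2 fold change in the hypoxia control against normoxia on the horizontal axis and with Si1 (left) or Si6 (right) against the negative control on the vertical axis, red for the 6 members and grey for 36 other genes of the pathway. Gbe1, Gys1, Ppp1r3c, Pygl and Ugp2 lie at the lower right with Epm2a, Prkab2 and Ugdh, and most other genes lie near 0.

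For each member whose group means spanned at least 1 log2 unit, the 3 genes of most similar pattern were sought by the root mean square difference between the 5 group means, each gene centred on its own mean. Gys1 was nearest to Egln1, the main HIF prolyl hydroxylase, with a difference of 0.06 log2 units, and then to Gpr35 (0.09) and Mgarp (0.09). Egln1 means ran 9.53, 11.30, 11.32, 9.55 and 9.73 from normoxia through the hypoxia control, the negative control and Si1 to Si6, beside 9.58, 11.40, 11.27, 9.59 and 9.67 for Gys1. Gbe1 had no neighbour as close, with Abhd18 at 0.20, Armh4 at 0.21 and Egln3, another HIF prolyl hydroxylase, at 0.22. Ppp1r3c was nearest to Cblb, a ubiquitin ligase, at 0.03, then to Adamts1 and Sncb at 0.12 each. Pygl was nearest to Negr1 (0.06), H2-Ab1 (0.07) and Edil3 (0.08). Among the members themselves, the closest pairs were Ppp1r3c with Pygl and Ugp2 with Pygl, at 0.19 each, and the farthest was Gbe1 with Pygb at 1.23. Such likeness over 5 means is a description only, since many genes share the steps between these groups.

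**Figure D4:**
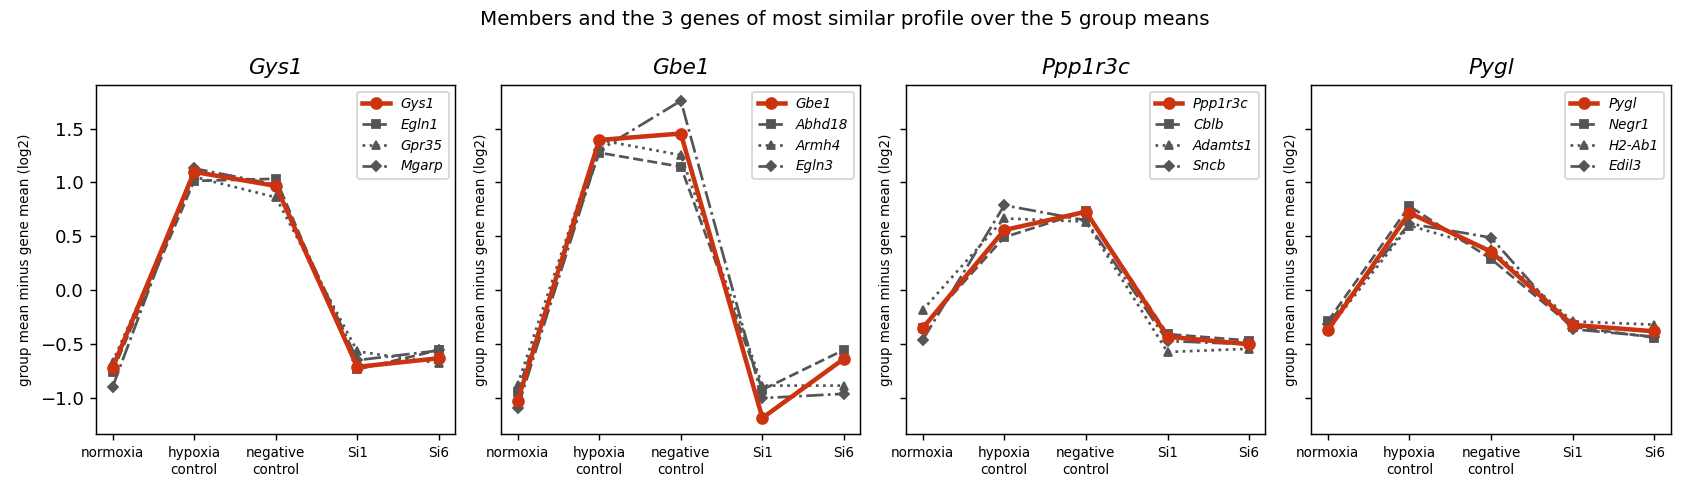
Group means (5 per gene, each minus the gene's own mean, in log2 units) of Gys1, Gbe1, Ppp1r3c and Pygl in red and of the 3 genes with the most similar profile to each in grey. The red and grey lines nearly coincide for Ppp1r3c with Cblb (0.03) and Gys1 with Egln1 (0.06), and Egln3 rises above Gbe1 in the negative control.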

How the data were processed

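Expression of 15 cultures was read from a table of log2 intensities that the authors deposited, 41345 probe sets per array. The submitters' processing notes name RMA and Partek, with no version or order. The sources used here give no filter, batch or scan date, so no batch could be tested. Array medians were 6.52 to 6.61, and pairs of arrays within a group correlated at 0.9931 to 0.9957. Such normalization between arrays hides a shift of all genes.

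Of the probe sets 23521 had exactly 1 symbol. The probe set with the highest mean stood for a gene, giving 22180 genes. limma 3.58.1 in R 4.3.3 was used to fit a mean per group over all 15 arrays, followed by eBayes and two-sided tests, with p-values adjusted by Benjamini-Hochberg within each comparison (threshold 0.05). The median standard error was 0.076, and 3 arrays per group limit the precision. All p-values measure the spread between replicates of 1 line. The procedure was tested on simulated data. A ± after a difference is its standard error.

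The members and lists were chosen with earlier results of these data known. Named other genes are up to 3 per list with the largest change among those called in hypoxia, Si1 or Si6, and 3 similar genes per member, skipping provisional symbols. Exceptions chosen after their values were seen are Nhlrc1, Phka2, Pygm in the hypoxia control and the marker genes named singly. Of the 42 other genes listed, 6 were not analysed here. Promoter letters were counted with Python 3.11.15. The alternatives were another quantile normalization, median centring, filters on dim genes, the mean of probe sets, trend and robust moderation, array weights, only the groups compared, a replicate block, and each array left out.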

Additional observations from a re-analysis of the deposited data

Results flagged for a closer look

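The siRNA effects on 2 members differed by a direct test, and the hypoxic controls differed in 3. Of all genes, 14.5% were called higher and 13.4% lower with Si1 against Si6. Between the hypoxic controls the shares were 7.80% higher and 7.51% lower in the negative control. Gbe1 was lower with Si1 than with Si6 by -0.55 log2 units, and Ugp2 was higher by 0.18. In the negative control against the hypoxia control, Ugp2 was at -0.23, Pygl at -0.36 and Pygb at -0.29. The Gbe1 and Pygb differences passed the test under all alternatives run that gave a value.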

How the results depend on the processing

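Every call of a member in the hypoxia control or the negative control against normoxia, and with Si1 or Si6 against the negative control, was kept under all 24 alternatives that gave a value. Ppp1r3c was not in the fit that left out the lowest 50% of genes. Replicate letters did not pair the arrays: 3 of 30 same-letter pairs of deviations correlated above 0.1, with a median of 0.00. The replicate block changed no member's call, with 2.42 for Gbe1 and 1.81 for Gys1 in hypoxia. For members, 1091 of 1144 recomputed fold changes kept direction and side of the threshold. In the negative control against the hypoxia control the count of lower members, 3, ran from 1 to 3 with single arrays left out, Ugp2 from -0.28 to -0.18 and Pygl from -0.46 to -0.25, and Pygl lost its call with only the groups compared (-0.36), where fewer arrays enter. Between Si1 and Si6 the count of higher members, 1, became 0 with median centring and with only the groups compared, where Ugp2 was at 0.18 in both, and ran from 0 to 1 with arrays left out (Ugp2 0.13 to 0.24). For Si1 against normoxia the count of lower members, 2, became 1 with repeated quantile normalization, median centring, array weights and only the groups compared, where Gbe1 was at -0.12, -0.12, -0.14 and -0.16, and ran from 1 to 2 with arrays left out (Gbe1 -0.19 to -0.10). Uncalled values near 0 changed sign. Against normoxia with Si1, Gys1 was at -0.01 with repeated quantile normalization, 0.00 with array weights and -0.03 to 0.03 with arrays left out, Ppp1r3c at -0.16 to 0.01 and Pygl at -0.08 to 0.13. With Si6, Pygl was at 0.02 with repeated quantile normalization and with median centring, and at -0.14 to 0.07 with arrays left out. Pygb with Si6 against the negative control was at -0.03 with repeated quantile normalization and 0.00 to 0.05 with arrays left out. For Si1 against Si6, Ppp1r3c ran from -0.02 to 0.12 and Pygl from 0.00 to 0.12. The cause of these shifts was not tested. Of 2107 recomputed fold changes of the other named genes, 0 changed direction and 138 lost the call. Without detection calls, signal over background was not measured, which limits what the fold changes can show.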
